A study of Mus musculus with 6 samples.

Results

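NRF2, encoded by Nfe2l2, and 9 of the genes it is known to activate (Hmox1, Nqo1, Gclc, Gclm, Srxn1, Txnrd1, Osgin1, Ugdh and Gpx1) were followed in mouse liver with and without TLR3. The genes were chosen by name, each was read from its 1 probe set with a single gene symbol, and these 10 genes stand among 10347 with a single symbol and a tested probe set. All 10 were above the lowest deposited value, a floor of 5 on the log2 scale, on all 6 arrays, so none was lost to the filter on low values. Total RNA came from whole livers of untreated mice aged 3 months, 3 TLR3-/- mice and 3 TLR3wt mice, with 1 Affymetrix array per mouse. TLR3 senses double-stranded RNA inside endosomes, and the comparison addresses which liver transcripts differ with its genotype without a stimulus. The sample labels give the strain C57Bl/6 for the TLR3wt mice, and the series design names it for the comparison as a whole. Both groups were bred in-house in specific-pathogen-free housing, and the labels do not say how the TLR3-/- allele was made or backcrossed.

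NRF2 is a transcription factor that the adaptor KEAP1 holds in the cytoplasm and passes to a CUL3 ubiquitin ligase for degradation. Oxidants and electrophiles modify KEAP1, NRF2 then accumulates, pairs with a small MAF protein and binds antioxidant response elements near genes for glutathione synthesis, thioredoxin recycling, NADPH supply, heme breakdown and detoxification. The repressor BACH1 occupies the same elements at Hmox1 until heme displaces it. In the liver, hepatocytes hold most of the glutathione and detoxification enzymes, while heme oxygenase-1 is also abundant in Kupffer cells, the resident macrophages that clear old red blood cells.

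Each array had 15081 to 15226 probe sets above the floor, and array medians over the tested probe sets were 6.54 to 6.59 (log2 signal). Correlations between arrays over these probe sets were 0.984 to 0.991 within a group and 0.980 to 0.988 between groups. TLR3wt mouse 3 was one of the pair in the lowest value of either kind. The labelled tissue was borne out by the hepatocyte gene Alb, with 13.06 ± 0.03 in the TLR3-/- group and 13.08 ± 0.02 in the TLR3wt group (log2 signal, mean ± SD, n = 3 each). All 5 neutrophil markers and 6 of 7 T and B cell markers were at the floor on every array. The Tlr3 probe set was itself at the floor on all 6 arrays, so the array gave no check of the genotype labels.

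None of the 10 genes passed the test between genotypes. In limma over all 16639 tested probe sets, 31 passed an adjusted p of 0.05 (0.186%, with 0.138% higher and 0.0481% lower in TLR3-/- livers). Over the 10347 genes 0.087% passed, 2 higher and 7 lower, and 0 of the 10 genes did. Of the 10, 4 had an unadjusted p under 0.05 (Hmox1, Ugdh, Srxn1 and Osgin1), against 15.7% of all tested genes. The 3 livers of one genotype all lay on one side of the 3 livers of the other in 3 of the 10 genes, Hmox1, Ugdh and Srxn1, all lower in TLR3-/- livers. Among all tested genes 22.7% had groups that did not overlap, 7.62% with TLR3-/- livers lower. The mean was higher in TLR3-/- livers for 5 genes and lower for 5, where 60.9% of all tested genes were higher, with a median log2 difference of 0.01, beside 0.03 over all tested genes. All differences below are TLR3-/- minus TLR3wt on the log2 scale, and intervals are 95% intervals from limma.

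**Figure D1:**
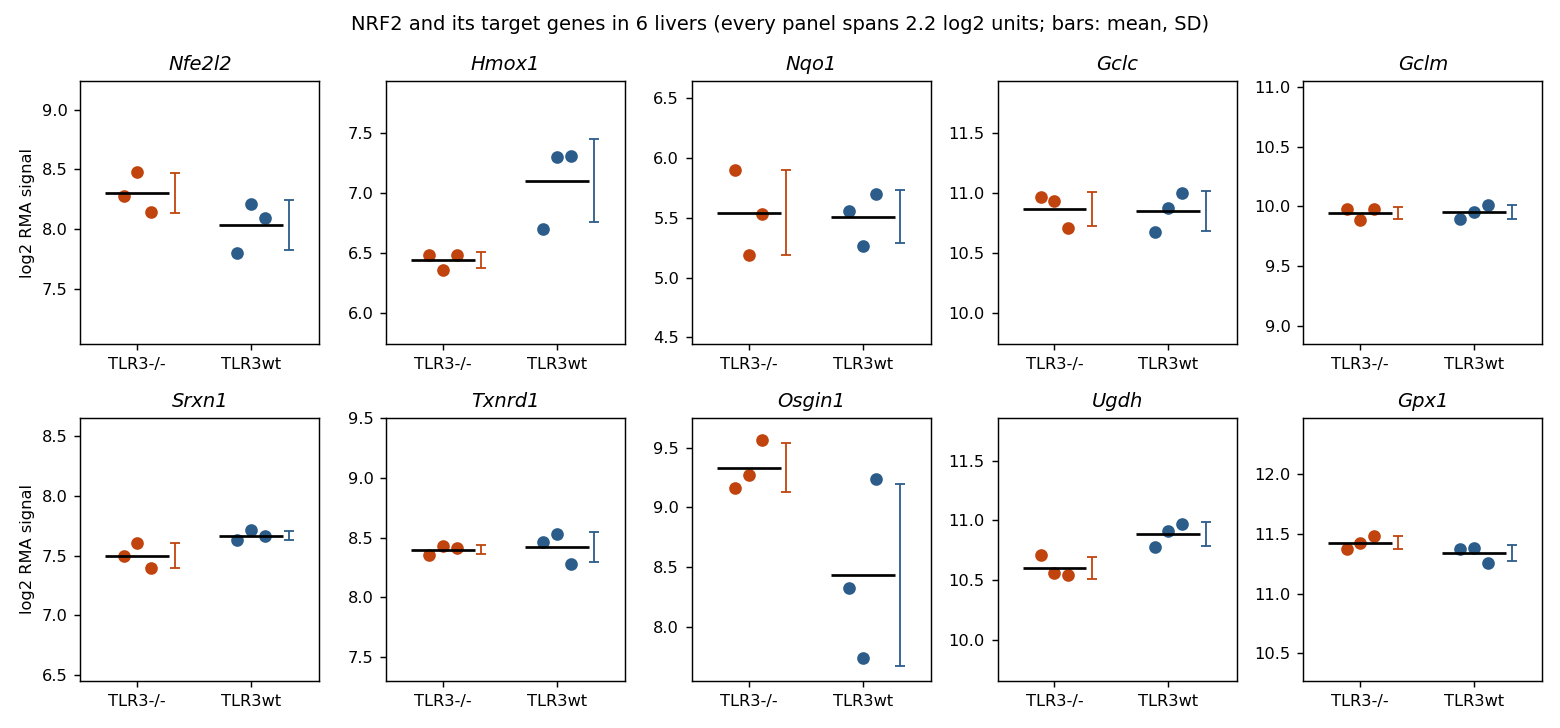
Log2 RMA signal of Nfe2l2 and 9 target genes in each liver, TLR3-/- left and TLR3wt right, with black lines at group means and error bars of 1 SD (n = 3 each), every panel drawn over the same span of log2 units. Hmox1, Ugdh and Srxn1 have no overlap between the groups, and the TLR3wt value of 9.24 for Osgin1 in mouse 3 lies among the TLR3-/- values of 9.16 to 9.56.

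Promoter sequence is shown for Osgin1, which had the largest difference of the 10 genes, and for Srxn1 and Ugdh, whose groups did not overlap, from the RefSeq promoter table (GRCm38.p6). Promoters of Hmox1 and Gclc were not analysed here. Each window is the 250 bases before the annotated start, 5′ to 3′ on the gene's strand. Capitals mark matches on either strand to 2 forms of the antioxidant response element core, TGACNNNGC and TGAGTCAGC, a pair settled on after the sequences and values had been seen. The forms differ at the base after TGA, so no site matches both.
Osgin1, chr8:119436897-119437146, plus strand: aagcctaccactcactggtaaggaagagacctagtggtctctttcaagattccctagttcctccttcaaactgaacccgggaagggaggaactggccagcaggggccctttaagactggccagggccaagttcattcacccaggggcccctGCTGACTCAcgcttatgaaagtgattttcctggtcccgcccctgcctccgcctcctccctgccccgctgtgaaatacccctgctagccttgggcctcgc
Srxn1, chr2:152105274-152105523, plus strand: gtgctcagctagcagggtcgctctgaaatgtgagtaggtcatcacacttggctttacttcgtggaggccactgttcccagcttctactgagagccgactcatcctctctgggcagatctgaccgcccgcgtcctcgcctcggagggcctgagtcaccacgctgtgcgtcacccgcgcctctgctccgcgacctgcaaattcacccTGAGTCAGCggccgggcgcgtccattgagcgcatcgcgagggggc
Ugdh, chr5:65435843-65436092, minus strand: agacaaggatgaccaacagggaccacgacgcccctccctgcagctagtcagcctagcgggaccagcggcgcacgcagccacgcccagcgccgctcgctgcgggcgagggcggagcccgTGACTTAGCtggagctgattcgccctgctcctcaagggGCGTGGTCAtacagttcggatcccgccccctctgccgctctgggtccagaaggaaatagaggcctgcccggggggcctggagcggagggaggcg

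The TGAGTCAGC core stood at bases -99 to -91 of Osgin1, on the strand opposite to the gene, and at bases -45 to -37 of Srxn1, on the gene's own strand, counted from the annotated start. Ugdh held the TGACNNNGC form at bases -132 to -124 (TGACTTAGC) and, on the opposite strand, at bases -94 to -86 (TGACCACGC). Windows of 300 bases, which add 50 bases after the start, were searched for all genes. TGAGTCAGC was present in 0.414% of 32851 windows and in those of Osgin1 and Srxn1, and TGACNNNGC in 12.4% of all windows and in those of Gclm, Nfe2l2, Ugdh, Srxn1 (after the start, outside the bases shown) and, in 1 of several windows, Txnrd1. Of the 8 genes with an entry, which held 10 windows, Nqo1 and Gpx1 had neither form. Genes with a match differed in direction on the arrays. In TLR3-/- livers Osgin1 and Nfe2l2 lay on the higher side and Ugdh and Srxn1 on the lower side. Gclm and Txnrd1, which also held a match, were near 0, with log2 differences of -0.01 and -0.02. A match of letters is a description, and these windows do not reach distal elements.

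NRF2 itself was measured at 8.28, 8.48 and 8.15 in the 3 TLR3-/- livers, against 7.80, 8.21 and 8.09 in the 3 TLR3wt livers (Nfe2l2, log2 signal). The lowest TLR3-/- liver lay below the highest TLR3wt liver, so the groups overlapped. The log2 difference was 0.27 with an interval of -0.06 to 0.59 (limma adjusted p = 0.414), and 0.15 without TLR3wt mouse 1. NRF2 activity is set mostly by the stability of the protein, which an RNA array does not measure.

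Hmox1, the inducible heme oxygenase that opens the heme ring to release biliverdin, carbon monoxide and iron, had the largest difference on the lower side. It was 6.48, 6.36 and 6.48 in TLR3-/- livers, against 6.70, 7.30 and 7.31 in TLR3wt livers (log2 signal). All TLR3-/- livers lay below all TLR3wt livers, but TLR3wt mouse 1 was only 0.22 above the highest of them. The means were 6.44 ± 0.07 in the TLR3-/- group and 7.10 ± 0.35 in the TLR3wt group (SD, n = 3 each), a log2 difference of -0.66 with an interval of -1.08 to -0.25. That is a 1.58-fold lower signal, which did not pass (limma unadjusted p = 0.00776, adjusted p = 0.188). A larger difference in either direction was seen in 1.46% of the tested probe sets.

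Macrophage markers were lower in the same livers as Hmox1. Of 15 markers of macrophages and Kupffer cells, all measured, 14 had non-overlapping groups with lower TLR3-/- values (7.62% of all tested genes did), 0 passed over all probe sets, and the median log2 difference was -0.87. The mean of the markers, relative to the TLR3wt mean, was -0.67, -1.14 and -0.55 in TLR3-/- mice 1 to 3, against -0.24, 0.22 and 0.01 in TLR3wt mice 1 to 3 (log2 signal). TLR3wt mouse 1, with the lowest Hmox1 of its group, also had the lowest marker mean of its group, and TLR3-/- mouse 2 was lowest of all 6 livers in both. The order was not the same throughout. The marker mean was highest in TLR3wt mouse 2, but Hmox1 was highest in TLR3wt mouse 3 (7.31, against 7.30 in mouse 2). In TLR3-/- mice 1 and 3 the marker means differed, while Hmox1 was 6.48 in both. The summed linear signal of the 15 markers was 1418 to 2174 in the TLR3-/- group and 2695 to 3675 in the TLR3wt group. The 2 brightest markers on this array were the Kupffer cell lectin gene Clec4f, with 7.85 ± 0.28 in the TLR3-/- group and 8.54 ± 0.13 in the TLR3wt group, and the pore-forming protein gene Mpeg1, with 7.51 ± 0.24 in the TLR3-/- group and 8.54 ± 0.35 in the TLR3wt group (log2 signal, SD, n = 3 each). No macrophage marker was at the floor on any array. In whole-liver RNA, fewer cells of a type and less RNA per cell cannot be told apart, and the part of macrophages in the Hmox1 difference was not tested.

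**Figure D2:**
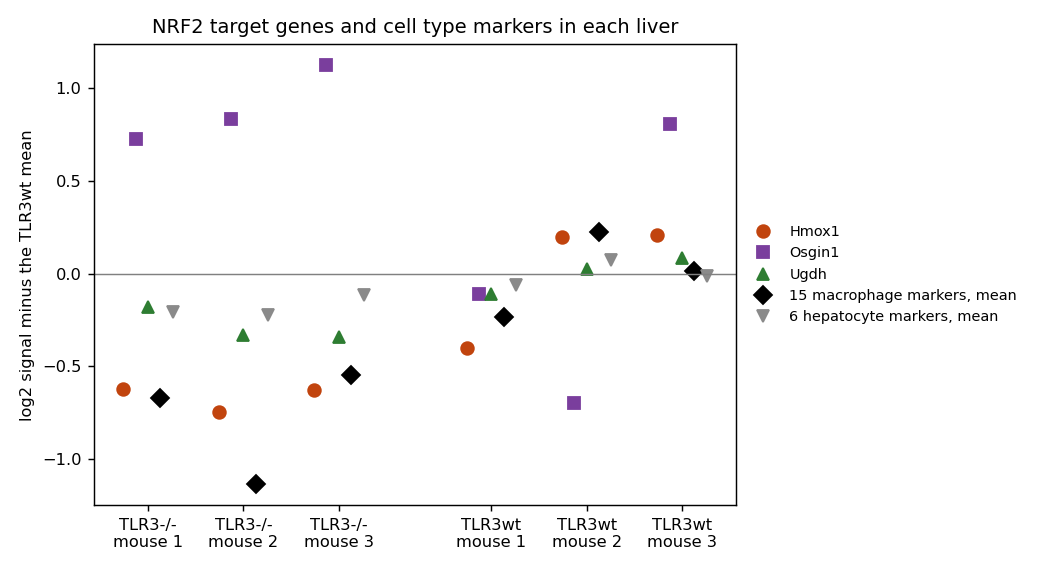
Log2 signal minus the TLR3wt mean for Hmox1, Osgin1 and Ugdh and for the means of 15 macrophage and 6 hepatocyte markers, in each of the 3 TLR3-/- and 3 TLR3wt livers. Macrophage markers lie at -1.14 to -0.55 in TLR3-/- and -0.24 to 0.22 in TLR3wt livers. Hmox1 is lowest in the same liver as they are, and nearly equal in TLR3wt mice 2 and 3 (7.30 and 7.31, log2 signal). Osgin1 is high in the 3 TLR3-/- livers and in TLR3wt mouse 3.

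Other genes of heme handling lay on both sides. Of 11 listed genes 10 were tested and 0 passed. In TLR3-/- livers 4 had a higher and 6 a lower mean, where 39.1% of all tested genes were lower. The median log2 difference was -0.06, with a range of -1.20 to 0.14. Groups did not overlap in 2 genes, both lower in TLR3-/- livers (7.62% of all tested genes did). These were Hpx and Blvra (limma adjusted p = 0.294 and 0.382). Hpx, the plasma heme scavenger hemopexin, was 12.17 ± 0.06 in the TLR3-/- group and 12.48 ± 0.22 in the TLR3wt group (log2 signal, SD, n = 3 each). Blvra, biliverdin reductase A, had a log2 difference of -0.15. Alas1, the first enzyme of heme synthesis, varied widely among mice, with 9.67 ± 0.55 in the TLR3-/- group and 10.87 ± 0.88 in the TLR3wt group and overlapping groups (limma adjusted p = 0.337). The constitutive heme oxygenase Hmox2 had a log2 difference of -0.12, and the ferritin chains Ftl1 and Fth1, iron stores that NRF2 also activates, had 0.04 and -0.00. Spic, a transcription factor of iron-recycling macrophages, was at the floor on all arrays. Cd163, a haptoglobin-hemoglobin receptor of macrophages counted in both lists, was the 1 macrophage marker on the higher side, at 6.31, 5.92 and 6.33 in TLR3-/- against 6.17, 6.80 and 5.27 in TLR3wt livers (log2 signal). Its TLR3wt livers spread on both sides of the TLR3-/- livers.

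Osgin1, which encodes an oxidative stress-induced growth inhibitor, had the largest difference of the 10 genes and the largest spread. It was 9.16, 9.27 and 9.56 in TLR3-/- livers, against 8.32, 7.74 and 9.24 in TLR3wt livers (log2 signal). The TLR3-/- livers were close together and high, while the TLR3wt livers spanned a wide range and mouse 3 of that group lay within the TLR3-/- range. The means were 9.33 ± 0.21 in the TLR3-/- group and 8.43 ± 0.76 in the TLR3wt group (SD, n = 3 each), a log2 difference of 0.90 or 1.86-fold, with an interval of 0.0048 to 1.79 (limma unadjusted p = 0.0491, adjusted p = 0.343). Its residual SD of 0.56 was exceeded by 0.613% of the tested probe sets. The difference depended on single TLR3wt mice. It was 1.30 without TLR3wt mouse 3 and 0.55 without TLR3wt mouse 2 (limma adjusted p = 0.157 and 0.577).

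Ugdh, the enzyme that makes UDP-glucuronate for glucuronidation, was 10.71, 10.56 and 10.54 in TLR3-/- livers, against 10.78, 10.91 and 10.97 in TLR3wt livers (log2 signal). All TLR3-/- livers were lower, with 0.07 between the groups at their closest. The means were 10.60 ± 0.09 in the TLR3-/- group and 10.89 ± 0.10 in the TLR3wt group (SD, n = 3 each), and the log2 difference was -0.28 with an interval of -0.47 to -0.10 (limma unadjusted p = 0.0101, adjusted p = 0.203). This 1.22-fold difference was smaller than that of Hmox1 but rested on a smaller spread within groups. Ugp2, which makes the UDP-glucose that Ugdh oxidises, lay the other way, with a log2 difference of 0.34 and an interval of -0.03 to 0.70 (limma adjusted p = 0.374).

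Srxn1, sulfiredoxin, which restores overoxidised peroxiredoxins, was 7.50, 7.60 and 7.39 in TLR3-/- livers, against 7.63, 7.71 and 7.66 in TLR3wt livers (log2 signal). The groups did not overlap, but only 0.03 separated them. The log2 difference was -0.17 with an interval of -0.34 to -0.00047 (limma unadjusted p = 0.0495, adjusted p = 0.345).

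The other thioredoxin-system gene of the set had nearly equal group means. Txnrd1, the cytosolic NADPH-dependent thioredoxin reductase, was 8.35, 8.43 and 8.42 in TLR3-/- livers, against 8.46, 8.53 and 8.28 in TLR3wt livers (log2 signal). The TLR3-/- values lay within the TLR3wt range. The interval of the log2 difference of -0.02 was -0.21 to 0.17 (limma adjusted p = 0.923). Of 8 tested thioredoxins and peroxiredoxins other than these, 0 passed, 3 had a higher and 5 a lower mean, and the median was -0.03. The peroxiredoxin genes Prdx2 and Prdx4 had log2 differences of 0.18 and -0.17, with groups that did not overlap in either (limma adjusted p = 0.352 and 0.476). Such separation in either direction was seen in 22.7% of all tested genes. The other tested Prdx2 probe set gave 0.04. Txnrd2, the mitochondrial reductase, had a difference of 0.17 with overlapping groups (limma adjusted p = 0.368).

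Both subunits of glutamate-cysteine ligase, the rate-limiting enzyme of glutathione synthesis, had nearly equal group means. The catalytic subunit Gclc was 10.97, 10.93 and 10.71 in TLR3-/- livers, against 10.67, 10.87 and 11.00 in TLR3wt livers (log2 signal). The modifier subunit Gclm was 9.97, 9.88 and 9.98 in TLR3-/- livers, against 9.90, 9.95 and 10.01 in TLR3wt livers (log2 signal). Groups overlapped in both. The log2 differences were 0.02 for Gclc with an interval of -0.25 to 0.29, and -0.01 for Gclm with an interval of -0.15 to 0.13 (limma adjusted p = 0.952 and 0.960). The interval of Gclm was the narrowest of the 10 genes and reached 1.11-fold at its wider end.

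Further along the glutathione pathway the values were mixed. Of 7 tested genes of glutathione synthesis and recycling 0 passed and the median log2 difference was -0.05. Glo1, a glutathione-dependent glyoxalase, had a difference of 0.18 with groups that did not overlap, and Chac1, which degrades glutathione, and Gss, glutathione synthetase, had -0.26 and -0.24 with overlapping groups (limma adjusted p = 0.292, 0.385 and 0.465). The Gss difference was -0.10 without TLR3wt mouse 3. Slc7a11, the cystine importer and a classical NRF2 target, was at the floor on all 6 arrays. Of 8 tested glutathione S-transferase genes 6 had a lower mean in TLR3-/- livers, where 39.1% of all tested genes did, and 0 passed, with a median of -0.22. Gstm3 was 10.52 ± 0.38 in the TLR3-/- group and 11.07 ± 0.14 in the TLR3wt group, Gstm1 was 11.76 ± 0.20 in TLR3-/- against 12.02 ± 0.01 in TLR3wt, and Gstm2 was 7.14 ± 0.44 in TLR3-/- against 7.62 ± 0.04 in TLR3wt (log2 signal, SD, n = 3 each; limma adjusted p = 0.283, 0.336 and 0.367). The other tested Gstm3 probe set had a log2 difference of -1.02 against -0.55 for the one given (limma adjusted p = 0.232). The TLR3-/- livers varied more than the TLR3wt livers in these 3 genes. Relative to the TLR3wt mean, the mean of the 8 genes was 0.001, -0.425 and -0.233 in TLR3-/- mice 1 to 3. By this mean TLR3-/- mouse 1 was not on the lower side. In the probe sets given for Gstm3 and Gstm1, however, it lay below all TLR3wt livers. Groups thus did not overlap in Gstm3 and Gstm1, but they did in Gstm2. Of all tested genes 22.7% had non-overlapping groups, 7.62% with TLR3-/- livers lower. The differences of Gstm3, Gstm1 and Gstm2 were -0.75, -0.36 and -0.72 without TLR3-/- mouse 1, and -0.37, -0.17 and -0.30 without TLR3-/- mouse 2. These genes are close relatives, and signal shared between their probes was not tested.

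Gpx1, the selenium-dependent peroxidase that uses glutathione to reduce hydrogen peroxide, was 11.37, 11.42 and 11.48 in TLR3-/- livers, against 11.37, 11.38 and 11.26 in TLR3wt livers (log2 signal). The groups overlapped by 0.01. The log2 difference was 0.09 with an interval of -0.06 to 0.24 (limma adjusted p = 0.573). Among 8 tested genes of other antioxidant enzymes 0 passed, with a median of 0.04. Groups did not overlap in 2 with TLR3-/- livers higher and 1 with them lower, where 15.1% and 7.62% of all tested genes did. Msrb1, a selenium-dependent methionine sulfoxide reductase, had a difference of 0.17, Gpx4, which reduces lipid peroxides, had -0.12, and catalase, Cat, had 0.10, each with groups that did not overlap (limma adjusted p = 0.297, 0.361 and 0.525).

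Nqo1, the quinone reductase often used as the standard readout of NRF2, lay close to the floor in every liver. It was 5.90, 5.19 and 5.54 in TLR3-/- livers, against 5.56, 5.26 and 5.70 in TLR3wt livers (log2 signal). All 3 TLR3wt livers lay within the range of the TLR3-/- livers. The log2 difference of 0.03 had an interval of -0.45 to 0.52 (limma adjusted p = 0.958), which reached 1.37-fold lower and 1.43-fold higher. A floor of 5 below these values also limits how low Nqo1 could read.

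**Figure D3:**
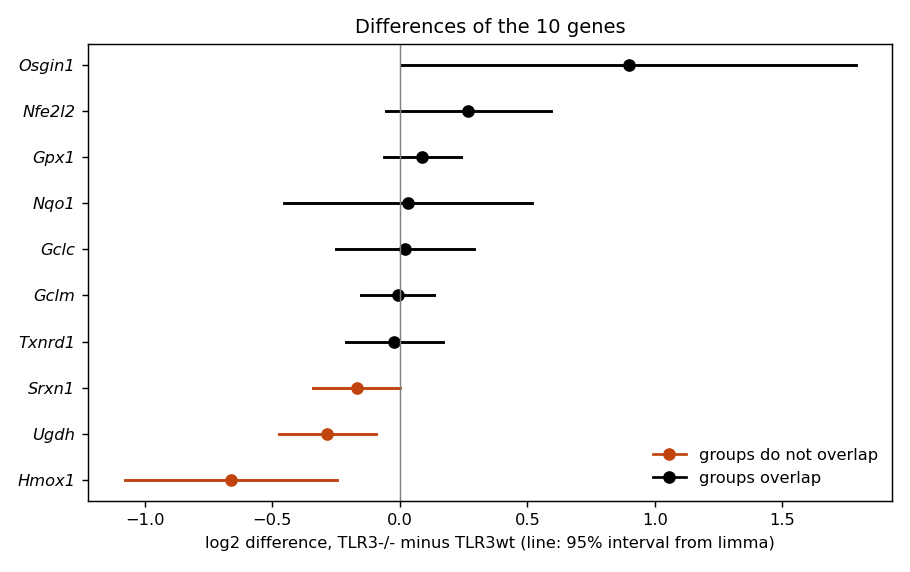
Log2 difference (TLR3-/- minus TLR3wt) of each of the 10 genes with its 95% interval from limma (n = 3 livers each), in red where the groups do not overlap. Hmox1 (-0.66), Ugdh (-0.28) and Srxn1 (-0.17) lie below 0 and Osgin1 (0.90) above it, while Gclm, Gclc, Txnrd1 and Nqo1 lie between -0.02 and 0.03.

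The regulators of NRF2 differed little. Of 14 listed genes 13 were tested and 0 passed, and the median log2 difference was 0.026, beside 0.033 over all tested genes. Keap1 had a difference of 0.02, Cul3 of -0.01 and the repressor gene Bach1 of -0.02 (limma adjusted p = 0.944, 0.970 and 0.964). Rbx1, the RING subunit of the CUL3 ligase, and Mafg, a small MAF partner of NRF2, had differences of 0.13 and 0.11 with groups that did not overlap, and Bach2 had 0.24 with overlap (limma adjusted p = 0.343, 0.504 and 0.531). Of all tested genes 15.1% had non-overlapping groups with higher TLR3-/- values. Without TLR3-/- mouse 3 the Bach2 difference was 0.07, and without TLR3wt mouse 1 that of Mafg was 0.05. The other tested Rbx1 probe set gave -0.01, so the array gave no single direction for that gene. Maff was at the floor on all arrays.

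NADPH supply genes had lower group means without passing. All 5 tested genes had a lower mean in TLR3-/- livers, where 39.1% of all tested genes did, and the median log2 difference was -0.15. Relative to the TLR3wt mean, the list mean was 0.03, -0.36 and -0.36 in TLR3-/- mice 1 to 3, against 0.11, 0.08 and -0.19 in TLR3wt mice 1 to 3, so the groups overlapped and TLR3-/- mouse 1 was not on the lower side. Pgd, of the pentose phosphate pathway, was 7.78 ± 0.27 in the TLR3-/- group and 8.20 ± 0.09 in the TLR3wt group (log2 signal, SD, n = 3 each). It did not pass (limma adjusted p = 0.269). Its groups did not overlap, which 7.62% of all tested genes showed with TLR3-/- livers lower. The cytosolic isocitrate dehydrogenase gene Idh1 and the transaldolase gene Taldo1 had differences of -0.15 and -0.13, both with overlap (limma adjusted p = 0.499 and 0.590).

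Other listed genes linked to NRF2, with roles in detoxification and beyond it, differed in both directions. Of 12 tested, 0 passed, 7 had a higher and 5 a lower mean, and the median was 0.10. Cbr1, a carbonyl reductase, was 8.82 ± 0.17 in the TLR3-/- group and 9.27 ± 0.19 in the TLR3wt group, and Abcc4, a basolateral exporter of conjugates, was 5.18 ± 0.02 in the TLR3-/- group and 5.48 ± 0.10 in the TLR3wt group (log2 signal, SD, n = 3 each; limma adjusted p = 0.212 and 0.160). Lpin1, a phosphatidate phosphatase gene, had the largest difference of the list, -2.07 on the log2 scale, with signals of 6.86 ± 0.81 in the TLR3-/- group and 8.93 ± 0.98 in the TLR3wt group (SD, n = 3 each; limma adjusted p = 0.214). Groups did not overlap in any of these 3 genes, and Abcc4 lay close to the floor. Among all tested genes 7.62% had groups that did not overlap with TLR3-/- livers lower, and 15.1% with TLR3-/- livers higher. On the higher side groups did not overlap in 3 genes either, the conjugate exporter genes Abcc2 (0.22) and Abcc3 (0.23) and the pseudokinase gene Trib3 (0.27), all log2 differences, with limma adjusted p of 0.240, 0.387 and 0.291. Akr1b8 and Cbr3, 2 other reductases counted among NRF2 targets, were at the floor on all arrays. Among cell type markers, 0 passed in any list. Liver endothelial markers had a median log2 difference of -0.04 over 7 tested genes, 3 with a higher and 4 with a lower mean. Stellate cell markers had 0.17 over 5, 4 higher and 1 lower. Groups did not overlap, with TLR3-/- livers lower, in the endothelial genes Lyve1 (-0.555) and Pecam1 (-0.24) and the stellate cell gene Col1a1 (-0.49). Of 2 tested erythroid markers, Alas2 had -0.22, and Slc4a1 was at the floor in the 3 TLR3-/- livers and in TLR3wt mouse 1. Of 4 measured cholangiocyte markers 3 were at the floor on all arrays. Hepatocyte markers had a median of -0.06 over 6 tested genes, 1 with a higher and 5 with a lower mean. Their summed linear signal was 31287 to 32178 in the TLR3-/- group and 33501 to 35380 in the TLR3wt group, without overlap. Tat (-0.395) and Apoa1 (-0.10) had groups that did not overlap, and Pck1 (-0.61) had groups that did. Alb, Ttr and Cps1 had log2 differences of -0.01, 0.04 and -0.01.

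**Figure D4:**
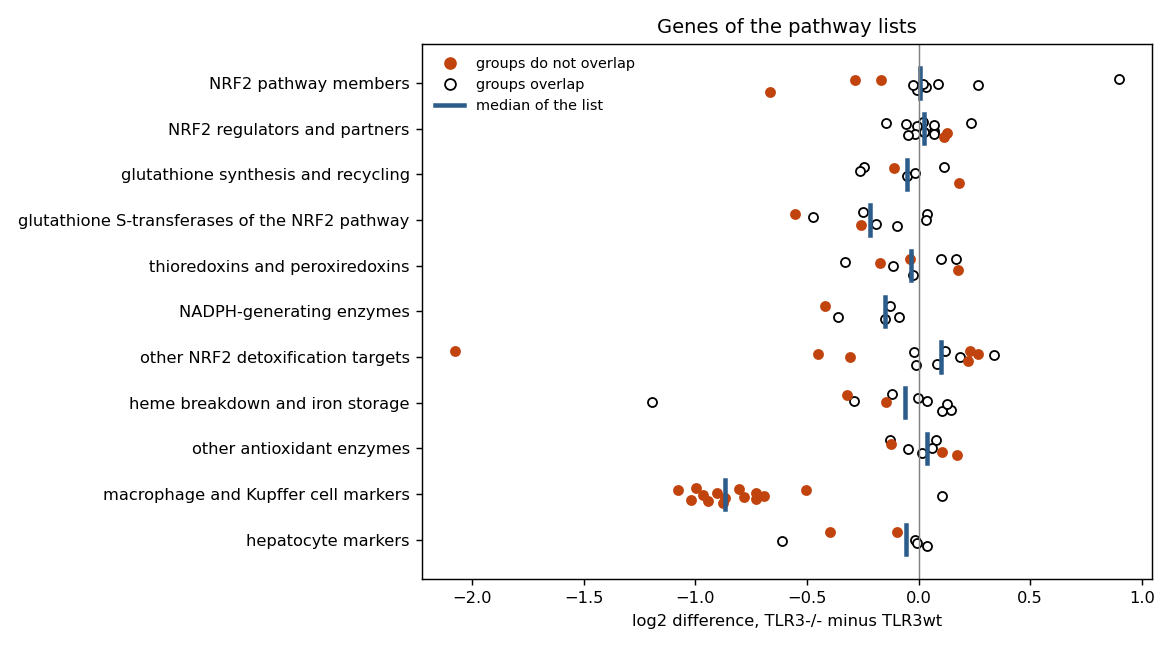
Log2 difference (TLR3-/- minus TLR3wt) of each tested gene in the 10 genes and 8 related lists and in 2 marker lists, red where the 3 TLR3-/- and 3 TLR3wt livers do not overlap, with blue bars at list medians. The macrophage markers lie at a median of -0.87, while the medians of the NRF2-related lists lie between -0.22 and 0.10.

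The array profiles most like those of Osgin1 and Hmox1 were sought among 9091 other genes above the floor on all arrays. For Osgin1 the 4 highest Pearson correlations over the 6 arrays were Arl14ep (0.992), Dennd10 (0.980), Snx18 (0.979) and Setd2 (0.971). For Hmox1 they were Il6ra (0.998), Ifi30 (0.994), Zbtb16 (0.990) and Rhbdf2 (0.988). These are the extremes of many genes over 6 points that share the difference between genotypes, and they are a description of likeness. The genes like Hmox1 had lower means in TLR3-/- livers, with log2 differences of -0.60, -0.41, -1.17 and -0.19 in the order given. Those like Osgin1 had small positive differences of 0.24, 0.12, 0.25 and 0.16, so Osgin1 shared their profile at a larger scale.

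Of the set, 3 genes, Hmox1, Nqo1 and Osgin1, lie on chromosome 8, which also carries Tlr3. In the gene order of GRCm38.p6, 119 tested genes lie between Tlr3 and Hmox1, 307 between Tlr3 and Nqo1 and 358 between Tlr3 and Osgin1. A targeted allele can carry flanking chromosome of another strain, and here effects of such sequence and of TLR3 loss cannot be told apart. The log2 differences were -0.66 for Hmox1, 0.90 for Osgin1 and 0.03 for Nqo1, and their relation to flanking sequence was not tested.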

How the data were processed

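The authors deposited log2 values. The submitters' processing notes name RMA and Affymetrix Expression Console, and no further scaling was applied. The table held 35557 probe sets, with a lowest value of exactly 5, a floor that no label or note explains. Leaving out the 18918 that stood at 5 throughout gave 16639 for testing. Symbols came from the array annotation, updated through gene identifiers to GRCm38.p6 (99.6% matched). Probe sets with 1 symbol numbered 21789, and each gene was read from the one with the highest mean. Sample titles gave the groups, which limma 3.58.1 (R 4.3.3) compared (lmFit, eBayes, two-sided, Benjamini-Hochberg over all tested probe sets, threshold 0.05). The number of arrays limits the precision.

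The 10 genes, the lists and the left-out probe sets were chosen with earlier results of these data known. Named are the 10 genes, and from each related list the passing members or the 3 with the smallest unadjusted p; further list members are named for their role, after their values were seen. Cell type lists are given by counts, with their brightest members. Likeness was Pearson's correlation for the 2 genes with the largest differences. The fit was tested on simulated data. Alternatives covered the filter, normalisation, weights, variance model, probe sets entered, replicate block and each mouse left out. A gene with several symbols per probe set was not read, which left out members such as Gsta1, Prdx6 and G6pdx. Same-numbered mice did not deviate together.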

Additional observations from a re-analysis of the deposited data

How the results depend on the processing

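None of the 10 genes passed in any of the 17 alternatives over the whole table, and the smallest adjusted p of any of them was 0.085, for Hmox1 without TLR3wt mouse 1. Across these alternatives the log2 difference ranged from -0.86 to -0.56 for Hmox1, from 0.55 to 1.30 for Osgin1, from -0.34 to -0.24 for Ugdh and from -0.22 to -0.12 for Srxn1. Of 583 values of 34 named genes, 573 kept their direction and stayed short of the threshold. The other 10 changed sign. With 1 mouse left out, Nqo1 ranged from -0.15 to 0.21 (-0.09 without TLR3wt mouse 2), Gclc from -0.068 to 0.10 (-0.03 and -0.01 without TLR3-/- mice 1 and 2), Gclm from -0.038 to 0.021 and Txnrd1 from -0.10 to 0.03. Centring the arrays gave -0.01 for Gclc, and the other Rbx1 probe set gave -0.011. The cause was not tested. Leaving out 1 mouse changed the sign or moved the difference by over 1.5 times in 19 of the 34 genes. Over all probe sets 23 were called higher and 8 lower. With the probe sets at the floor included there were 0 and 0 (2018 at an unadjusted p under 0.05). When any array at the floor removed a probe set 9 were higher and 9 lower, with quantile normalisation again 7 and 2, and with centred arrays 8 and 6. Array weights, an intensity trend and robust variance gave 25 and 10, 27 and 9, and 22 and 8. Without variance moderation there were 1 and 1, with 1-symbol probe sets 0 and 1, and with identical probe sets once 2 and 1. Without 1 mouse, 0 to 11 were higher and 0 to 2 lower in limma (1771 to 2577 at an unadjusted p under 0.05). A fit with the replicate number as a block called 4 higher and 0 lower, and its smallest adjusted p among the 10 genes was 0.290. Same-numbered deviations correlated at 0.048, -0.012 and -0.063, within the span of -0.121 to 0.139 for mice with different numbers. No pairing by number was seen, but with 3 mice per group this cannot settle whether there was one. Signal near the floor limits genes such as Nqo1 and Abcc4.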
